A study of Homo sapiens with 12 samples.

Results

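The 4 arrays described here measured what 4-hydroxytamoxifen (4OHT) alone did to transcript levels in 2 human kidney cancer lines that carried no FoxO fusion. They are the 4 of 12 arrays labelled empty vector: RCC4 EV with vehicle, RCC4 EV with 4OHT, UMRC2 EV with vehicle and UMRC2 EV with 4OHT. RCC4 and UMRC2 are established renal carcinoma lines without a functional VHL tumour suppressor. Per the labels, empty vector means stable expression of ERT2, a tamoxifen-responsive form of the estrogen receptor's ligand-binding domain, with nothing fused to it. The other 8 arrays came from lines of the same origin carrying FoxO1 or FoxO3 with mutated AKT sites fused to ERT2. All lines were grown in DMEM with serum under puromycin and were exposed for 12 h to 100 nM 4OHT or to ethanol, the vehicle. Whether a stable line was 1 clone or a pool is not given in the sources used here. Each combination of line, construct and treatment has 1 array, so the lines stand as the only replicates (n = 2). The series used these cells as the control for nuclear entry of the FoxO fusions, and the comparison below asks what the ligand changed in them.

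4OHT is the active metabolite of tamoxifen and binds the estrogen receptor, where it blocks or mimics estrogen depending on the tissue. Tamoxifen and related amines also bind EBP and DHCR7, enzymes late in cholesterol synthesis. When cells run short of sterol, the membrane-bound factor SREBP2 is cut and carried to the nucleus, where it raises transcription of the enzymes of the pathway. Tamoxifen metabolites have in addition been described as ligands of the aryl hydrocarbon receptor and of estrogen-related receptors, and as basic amines that collect in lysosomes.

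The deposited values are MAS5 intensities, which were put on a common level by quantile normalisation over the 12 arrays, floored at an intensity of 18.02 (log2 4.17) and taken to log2. The response of a line is its log2 level with 4OHT minus its log2 level with vehicle. Of 19775 genes with a probe set of their own, 14280 reached the array median (log2 6.62) in at least 2 arrays and were tested. A gene is called bright where its mean over the 4 empty vector arrays reached the 75th percentile of all probe sets, log2 8.69 or an intensity of 413.9, which 7477 genes did. A level is a share of the RNA of a whole culture, so fewer cells of a kind and less RNA per cell cannot be told apart.

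As deposited, array medians ran from 71.1 to 138.7 and the spike-in level from 2239 to 4699. Within each empty vector pair the spike-in level was nearly the same, at 4339 and 4363 in RCC4 and at 2239 and 2316 in UMRC2. Of 13 kidney cancer markers, 9 were above the array median in all 4 arrays, among them PAX8, a renal lineage factor, at log2 12.45 to 12.51. LHX1 was above it in none, KRT19 and NNMT only in UMRC2 and MME only in RCC4, where NNMT read 5.97 and 4.25 and KRT19 was at the floor. Of 6 immune markers, CD79A (7.29 to 8.32) and ITGAM (7.05 to 7.20) were above the array median in all 4 arrays, CD3E in 3 and CSF1R in 1, while PTPRC was below it and CD14 at the floor. Of 6 endothelial markers PECAM1 (8.30 to 8.68) was above it in all 4 and the other 5 in none, with CDH5 at the floor. COL1A1 (9.19 to 9.64) and DCN (7.65 to 8.13) were the fibroblast markers above it in all 4, and 4 of 7 were above it in none. The part of other cell types in the responses was not tested.

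The construct labelled as ERT2 was looked for through ESR1. Of 9 probe sets for ESR1, the estrogen receptor gene, 5 were chosen because they stood at least log2 2 above the empty vector in all 4 fusion lines with vehicle, so their higher level in the fusion lines is fixed by the choice. Their median in the empty vector arrays was log2 5.24 (RCC4, vehicle), 5.21 (RCC4, 4OHT), 4.59 (UMRC2, vehicle) and 5.75 (UMRC2, 4OHT). All 20 of these values lay between 4.17 and 6.51, under the array median. In the 8 fusion arrays the same probe sets lay between 7.78 and 13.47. The remaining 4 probe sets lay between 4.17 and 7.13 in the empty vector arrays and between 4.17 and 6.99 in the fusion arrays. ESR2, the second estrogen receptor gene, was not bright either, at 6.46 and 6.52 in RCC4 and at 5.93 and 4.17 in UMRC2.

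No bright gene was changed at least 1.5-fold (log2 0.585) in the same direction in both lines. Of 7477 bright genes, 54 passed 1.5-fold in RCC4 (0.722%; 24 higher, 0.321%, and 30 lower, 0.401%) and 147 in UMRC2 (1.97%; 80 higher, 1.07%, and 67 lower, 0.896%), and 0 were higher in both lines or lower in both (0%). The share past 1.5-fold under the same dose and time was 9.52% and 15.6% in the FoxO1 lines and 38.8% and 37.6% in the FoxO3 lines, RCC4 first. With FoxO1, 131 bright genes (1.75%) were higher and 189 (2.53%) lower in both cell lines, and with FoxO3 648 (8.67%) and 1259 (16.8%). The central 95% of bright genes lay between -0.326 and 0.329 in RCC4 EV and between -0.434 and 0.457 in UMRC2 EV, whose standard deviations were 0.16 and 0.218. In the FoxO3 lines these standard deviations were 0.803 and 0.791. Averaged over both lines, the central 95% of the empty vector responses ran from -0.277 to 0.297, and its upper end is a fold of 1.23.

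**Figure D1:**
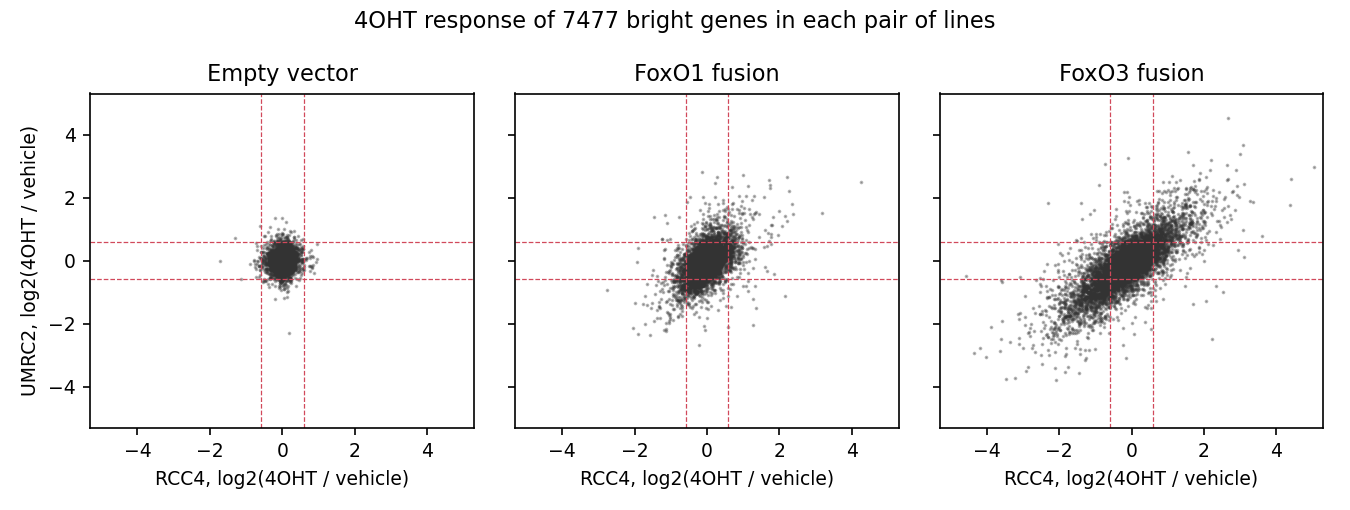
Response to 4OHT in RCC4 (horizontal axis) against UMRC2 (vertical axis), both as log2 of 4OHT over vehicle, for 7477 bright genes (1 point each) in the empty vector, FoxO1 and FoxO3 lines; dashed lines mark 1.5-fold. The empty vector points form a round cloud with none beyond the dashed lines in the upper right or lower left corner, while the FoxO3 points stretch along the diagonal.

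Several genes stopped just short of that fold. PAQR4, a membrane protein of the progestin and adipoQ receptor family, had intensities of 900 with vehicle and 407 with 4OHT in RCC4, and of 1302 and 869 in UMRC2. Its responses of -1.15 and -0.58 made it the gene nearest to the limit. AEN, a nuclease gene induced by p53, stood at 210 and 312 in RCC4 and at 974 and 1579 in UMRC2, a response of 0.57 and 0.70. Both RCC4 values lay under the limit of 413.9, so AEN was bright only through its UMRC2 level. It was lower, not higher, in the FoxO lines, where 4OHT changed it by -1.92 (adjusted p = 0.000388, limma, Benjamini-Hochberg adjusted over all tested genes). BAIAP2L1, which binds actin at membranes, gave -0.55 and -0.64, and the histone methyltransferase gene KMT2B -0.54 and -0.67. DECR2, of peroxisomal fatty acid oxidation, gave -0.64 and -0.53, and the deubiquitinase gene MINDY3 -0.72 and -0.52. Probe sets under the limit for bright had the other sign in RCC4 for MINDY3 (0.58 and -0.47) and BAIAP2L1 (0.48 and -0.14, and 0.18 and 2.61). Those of KMT2B were near the floor, and PAQR4, AEN and DECR2 had no second probe set. TMX4, a thioredoxin-like protein of the endoplasmic reticulum, gave 0.95 and 0.52, with intensities of 530 and 1022 in RCC4 and of 596 and 852 in UMRC2. Its other bright probe set read -0.05 and -0.03. For all of these the vehicle and 4OHT arrays of a line differ, but each such difference rests on 1 array against 1.

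The opposite pattern, past 1.5-fold in both lines with unlike signs, held for 2 bright genes (0.0267%) lower in RCC4 and higher in UMRC2 and for 0 of the reverse order. BANP, a nuclear matrix protein that binds unmethylated CpG motifs, had intensities of 1876 and 756 in RCC4 and of 461 and 752 in UMRC2, or -1.31 and 0.71. A second bright BANP probe set gave 1.03 and -0.44, with both signs turned, and its remaining one -0.13 and 0.07. DNAJC5, a chaperone of synaptic vesicles, had intensities of 1144 and 751 in RCC4 and of 876 and 1873 in UMRC2, or -0.61 and 1.10. Its other bright probe sets gave -0.14 and 0.09, and 0.03 and -0.08.

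Changes of 2-fold or more were common only among dim genes. Of 14280 tested genes, 731 (5.12%) passed 2-fold in RCC4 EV and 782 (5.48%) in UMRC2 EV, but only 3 and 10 of these were bright (0.0401% and 0.134% of bright genes). In RCC4, 577 of the 731 (78.9%) had a mean under the array median in that pair, and in UMRC2 601 of the 782 (76.9%). An array at the floor entered 96 and 117 of them. By level, the share past 2-fold dropped in RCC4 EV from 22.0% of 2975 genes under log2 7 to 0.416% between 8 and 9 and to 0 of 2531 genes at 11 and over. The same bins held 23.0%, 0.597% and 0.0408% in UMRC2 EV. In RCC4 FoxO3 the share was 34.7% under 7 and 15.4% at 11 and over, and in UMRC2 FoxO3 27.6% and 17.5%. All 6 pairs had their highest share in the lowest bin, and at log2 8 and over the empty vector pairs stayed under 1% while the fusion pairs stayed above 1%.

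**Figure D2:**
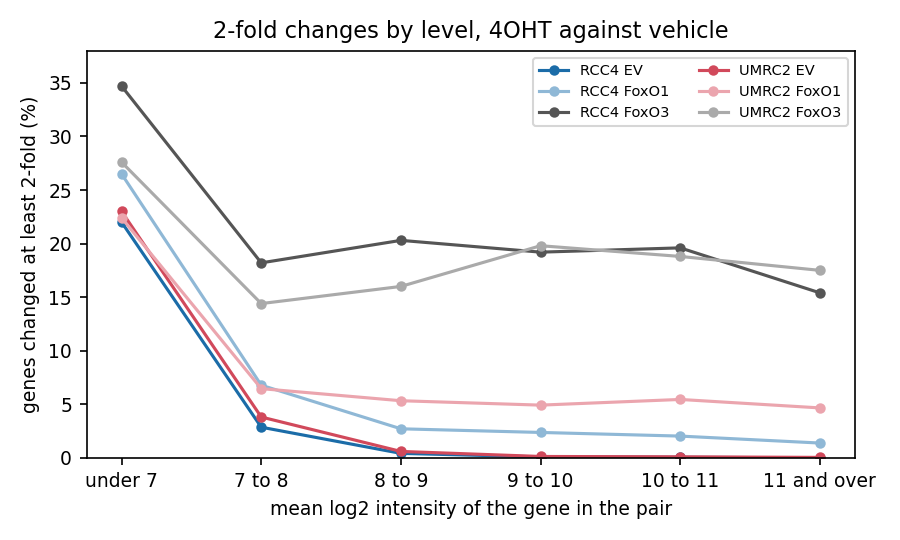
Share of tested genes (%) changed at least 2-fold between 4OHT and vehicle, by mean log2 intensity of the gene in the pair, 1 line per vehicle and 4OHT pair. Both empty vector lines drop from 22.0% and 23.0% under log2 7 to under 1% from log2 8 on, while the FoxO3 lines stay above 14% in every bin.

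With dim genes included, equal signs in both lines were about as common as unlike signs. Over all tested genes, 162 (1.13%) were at least 1.5-fold higher in both lines and 136 (0.952%) lower in both, while 124 (0.868%) were higher in RCC4 and lower in UMRC2 and 145 (1.02%) the reverse. Among those with equal signs were 4 of 453 tested genes of the lists (0.883%), 0 of them bright. The share over all tested genes was 2.09%. CCN5, a secreted matricellular protein induced by estrogen in breast cells, went from 4.39 to 6.37 in RCC4 and from 7.30 to 7.90 in UMRC2. CYP2B6, a drug-oxidising enzyme under the receptors CAR and PXR, went from 5.83 to 6.90 and from 6.07 to 7.01. Its other probe set gave 0.10 and 0.46. APOC1, a lipoprotein component, gave 0.72 and 0.62, but its other probe set gave -0.20 and -1.25. COL1A2, a chain of collagen I, went from 7.16 to 5.50 and from 6.91 to 5.28. In each of them at least 1 array lay under the array median of 6.62. The limma estimate for COL1A2 was -1.64 with an adjusted p of 1.

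Readings of the same RNA by different probe sets of a gene shared little of the empty vector responses. Over 2977 genes with a second bright probe set, the correlation between the responses of the brightest and the next probe set was r = 0.063 (rho 0.084) in RCC4 EV and 0.139 (rho 0.142) in UMRC2 EV. It was 0.667 and 0.792 in the FoxO1 lines, and 0.880 and 0.893 in the FoxO3 lines, RCC4 first. These are descriptions across genes of 1 pair of arrays, and both probe sets share the arrays and their scaling. Across the cell lines, which share no array, the responses of 7477 bright genes correlated at r = 0.061 (rho 0.073) for the empty vector, at 0.518 for FoxO1 and at 0.766 for FoxO3. Genes are not independent replicates, so no p-value is given.

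**Figure D3:**
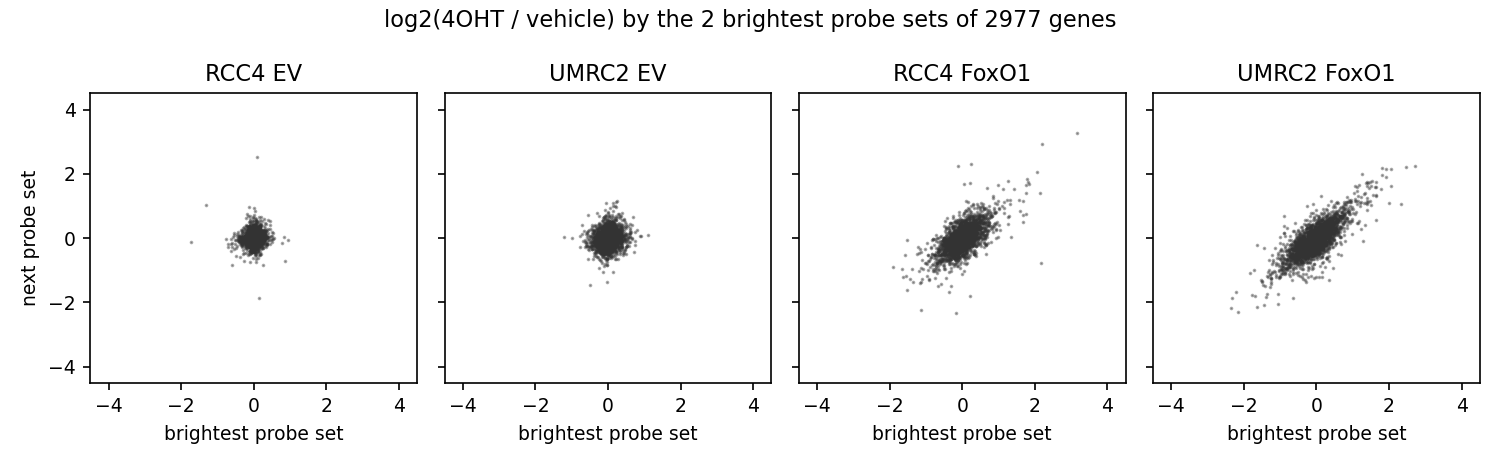
Response to 4OHT (log2 of 4OHT over vehicle) by the brightest probe set of a gene (horizontal axis) and by its next probe set (vertical axis), for 2977 genes, in RCC4 EV, UMRC2 EV, RCC4 FoxO1 and UMRC2 FoxO1. The points of the empty vector pairs show almost no slope (r = 0.063 and 0.139), and those of the FoxO1 pairs follow the diagonal (r = 0.667 and 0.792).

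A lower limit of 1.2-fold, set after the data were seen, gave 75 bright genes higher in both lines (1%) and 53 lower in both (0.709%). With unlike signs there were 32 higher in RCC4 (0.428%) and 48 higher in UMRC2 (0.642%). Of the 75, 21 had a second bright probe set, and in 5 (23.8%) it had the same sign in both lines, against 26.4% of all bright genes with one. Of the 53, 9 had one, and in 3 (33.3%) it matched, against 24.4%. RNF141, a ring finger protein gene with responses of 0.41 and 0.50, was the only gene of either group whose second probe set also passed 1.2-fold in both lines. It was 1 of 21 in the higher group (4.76%), against 0.773% of all bright genes with a second bright probe set. The lower group had 0 of 9, against 0.873%. In the FoxO lines 4OHT moved 4 of the 75 higher and 22 lower, where 14.9% of all bright genes were higher and 25.1% lower, and of the 53 it moved 6 lower and 7 higher.

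Single lines gave few candidates. Among 7539 genes bright in RCC4, 43 (0.57%) passed 1.5-fold there, of which 21 had the same sign in UMRC2, and 8 of 11 with a second bright probe set had the same sign by it. Among 7575 genes bright in UMRC2, 136 (1.80%) passed, 69 had the same sign in RCC4, and 24 of 38 had it by the second probe set. The matching share over all genes bright in a line is not given here, so these probe set counts cannot be read against it. A second probe set past the same fold was seen once in each line, for the ribosomal RNA precursor RNA45SN5 in RCC4 (-0.59 in RCC4 and 0.48 in UMRC2) and for COLGALT1, a collagen galactosyltransferase, in UMRC2 (0.15 and 0.68). The largest response of a gene bright over the 4 arrays was that of SRC, the tyrosine kinase gene. It went from 9.36 to 7.07 in UMRC2 and from 10.84 to 11.03 in RCC4. SRC was bright through RCC4, and its mean over the UMRC2 pair lay under the limit of 8.69. NNMT, a nicotinamide methyltransferase abundant in kidney cancer, had a response of -1.72 in RCC4, where it was dim (5.97 and 4.25), and of -0.03 in UMRC2, where it was among the strongest signals (14.05 and 14.03).

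The test over the lines made no call. In a limma fit of all 6 responses with construct and cell line as terms, 0 of 14280 genes had an adjusted p under 0.05 for the empty vector response, and 339 (2.37%) had an unadjusted p under 0.05. In the same fit, the mean response of the FoxO1 and FoxO3 lines passed for 3780 genes (26.5%), 1579 higher (11.1%) and 2201 lower (15.4%). FoxO activation and any effect of 4OHT through the ERT2 part cannot be told apart in those lines. The 95% interval around a gene's empty vector response concerns the mean over both lines and does not bound a change in 1 line. For 7379 of 7477 bright genes (98.7%) it lay within 2-fold in either direction. Its median half-width was 0.36 on the log2 scale. These intervals take their spread from how the difference between RCC4 and UMRC2 varied among the 3 constructs, and from the prior. They say nothing of repeat cultures of 1 line.

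Sterol synthesis genes, which SREBP2 raises when sterol runs short, had list medians near 0 in empty vector cells. All 16 measured genes of a list of 20 were tested and 13 were bright. The median response of the 16 was 0.04 in RCC4 and 0.05 in UMRC2, against 0 and 0.005 over all genes tested. None of the 13 bright genes passed 1.5-fold in either line, against 0.722% of all bright genes in RCC4 and 1.97% in UMRC2. The 95% interval held 0 for all 13, and 98 of 7477 bright genes had an unadjusted p under 0.05 by limma. It lay within 2-fold for all 13, against 98.7% of all bright genes. These counts do not set the list apart from other bright genes. In 10 of the 13 both lines were within 1.2-fold of vehicle, against 76.0% of all bright genes.

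At the head of the pathway, HMGCS1, the synthase that makes HMG-CoA, went from 8.55 to 8.48 in RCC4 and from 10.08 to 9.72 in UMRC2, and both of its bright probe sets were lower in both lines. MVK, mevalonate kinase, read 0.05 in each line. PMVK, the kinase that follows it, gave -0.02 in RCC4 and 0.56 in UMRC2, from 10.06 to 10.62, the largest single value of the 13. IDI1, the isomerase of isopentenyl diphosphate, went from 11.58 to 11.64 and from 12.34 to 12.55. FDPS, which makes farnesyl diphosphate, read -0.01 and 0.01. Of these enzymes HMGCS1 was lower in both lines, MVK and IDI1 were higher in both, and PMVK and FDPS had unlike signs. Over all bright members of the list, 9 of 13 (69.2%) had the same sign in both lines, against 52.2% of all bright genes.

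SQLE, squalene epoxidase, a rate-limiting step of the later pathway, went from 12.33 to 12.46 in RCC4 and from 12.78 to 12.94 in UMRC2. Its mean response of 0.15 ± 0.10 (SE, n = 2 lines) has a 95% interval from -0.08 to 0.38. The SE, here and below, comes from the limma fit to all 6 responses and is not the spread of the 2 lines alone. LSS, which closes the sterol rings, gave 0.15 and 0.02, and MSMO1, a C4 demethylase, 0.04 and 0.01. The tamoxifen-binding isomerase EBP went from 11.53 to 11.37 and from 12.12 to 12.21. DHCR7, the last reductase of the pathway and another tamoxifen-binding protein, went from 10.70 to 10.83 and from 10.98 to 11.39. Its mean of 0.27 ± 0.13 (SE, n = 2 lines; interval -0.04 to 0.58, adjusted p = 1 by limma) was, with PMVK, the highest of the bright members, and its 2 bright probe sets had equal signs. SC5D gave -0.14 and -0.07. The 3 genes that were not bright varied more: ACAT2 went from 5.70 to the floor in RCC4 and from 11.82 to 11.86 in UMRC2, MVD from 6.61 to 7.29 and from 7.99 to 8.34, and TM7SF2 gave -0.24 and 0.08.

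**Figure D4:**
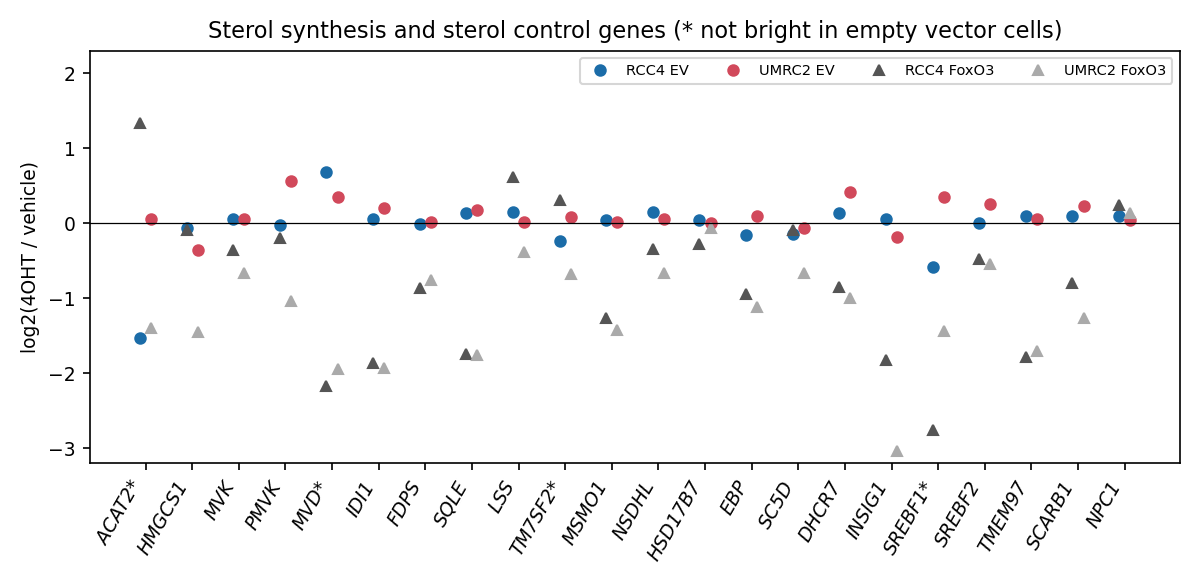
Response to 4OHT (vertical axis, log2 of 4OHT over vehicle) of 16 sterol synthesis genes and 6 genes of sterol sensing and transport in the empty vector pairs (circles) and the FoxO3 pairs (triangles); an asterisk marks genes that were not bright in empty vector cells. The circles of bright genes lie between -0.36 and 0.56, whereas most FoxO3 triangles lie below 0, down to -3.04 for INSIG1 in UMRC2.

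In the FoxO fusion lines 8 of the 16 fell with 4OHT and 0 rose (limma, adjusted p under 0.05), against 15.4% and 11.1% of all tested genes. SQLE fell by 1.02 ± 0.07 (SE, 4 pairs; adjusted p = 0.000145), IDI1 by 1.0 ± 0.09 (adjusted p = 0.000314), MSMO1 by 0.79 (adjusted p = 0.000673), EBP by 0.70 (adjusted p = 0.000997) and DHCR7 by 0.66 (adjusted p = 0.00213). The list's median response was 0.01 in RCC4 FoxO1, -0.30 in UMRC2 FoxO1, -0.35 in RCC4 FoxO3 and -1.02 in UMRC2 FoxO3. The SE of a fusion response, here and below, leaves out the difference between FoxO1 and FoxO3, whose estimates were averaged. It is not the spread of the 4 pairs.

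Promoter sequence shows what these genes share. The CCAAT box, bound by NF-Y, a partner of SREBP2 at sterol-regulated promoters, was found as CCAAT or ATTGG in 12 of 14 sterol synthesis promoters (85.7%), against 35.7% of 27305 human promoters of the same length, which runs from 250 bases before to 50 after the start. The classical sterol response element of letters TCACNCCAC, searched on both strands, was in 0 of those 14 and in 1 of 16 promoters of the sterol sensing and uptake list (6.25%), that of SREBF2 itself, against 1.15% of all. A match is a description of letters and not a bound site. The stretches below are upstream of the start in RefSeq (GRCh38.p14) and are shown for HMGCS1 and FDPS as synthesis genes with several boxes and for SREBF2 as the sensor gene with the element. Capitals mark the CCAAT box, in either orientation, in HMGCS1 and FDPS, and the sterol response element in SREBF2.
HMGCS1, chr5:43313478-43313597, minus strand: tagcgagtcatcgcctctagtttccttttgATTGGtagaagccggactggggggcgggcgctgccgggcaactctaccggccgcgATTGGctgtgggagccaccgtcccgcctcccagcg
FDPS, chr1:155308660-155308849, plus strand: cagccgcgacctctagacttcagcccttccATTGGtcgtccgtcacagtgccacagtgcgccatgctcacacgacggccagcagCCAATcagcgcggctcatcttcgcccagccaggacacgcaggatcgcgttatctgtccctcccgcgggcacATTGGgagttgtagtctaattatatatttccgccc
SREBF2, chr22:41832942-41833010, plus strand: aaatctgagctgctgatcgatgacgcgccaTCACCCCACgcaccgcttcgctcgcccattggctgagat

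Genes that sense, import and move sterol had medians near 0 too. Of 20 listed, 17 were measured and 14 bright, with list medians of 0.03 in RCC4 and 0.06 in UMRC2 over the bright members. INSIG1, which holds the SREBP escort SCAP in the endoplasmic reticulum and is itself a sensitive SREBP target, went from 10.15 to 10.21 in RCC4 and from 12.73 to 12.54 in UMRC2. In the FoxO lines it fell by 1.60 ± 0.14 (SE, 4 pairs; adjusted p = 0.000345). SREBF2, the gene of SREBP2, read 0.00 and 0.26, and SCAP -0.02 and 0.14. TMEM97, the sigma-2 receptor, which binds the cholesterol exporter NPC1 and tamoxifen-like amines, went from 11.85 to 11.95 and from 12.74 to 12.80, and fell by 1.35 in the FoxO lines (adjusted p = 0.000123). NPC1 itself gave 0.09 and 0.04, and SCARB1, a lipoprotein receptor, 0.10 and 0.23. OSBP, an oxysterol-binding protein, was the one bright member past 1.5-fold in a line, with -0.13 in RCC4 and 0.62 in UMRC2. In UMRC2, 1.97% of all bright genes passed that fold, and in RCC4 0.722%. SREBF1, whose product drives fatty acid synthesis, was not bright and gave -0.58 and 0.35.

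Fatty acid synthesis, under SREBP1, had 12 bright genes and medians of 0.06 and 0.06. FASN, fatty acid synthase, gave 0.02 and 0.30, and SCD, the stearoyl desaturase, 0.10 and 0.09. FADS2, a further desaturase, had the largest responses of equal sign, 0.56 and 0.37, with a 95% interval from -0.20 to 1.13. In the FoxO lines FASN fell by 1.06 (adjusted p = 0.00044) and SCD by 0.84 (adjusted p = 0.000328). Sterol efflux genes under the oxysterol receptor LXR were mostly too dim to read, with 9 tested and 1 bright. ABCA1, the main cholesterol exporter, went from 7.03 to 6.97 in RCC4 and from 9.29 to 9.11 in UMRC2.

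Estrogen receptor targets had list medians near 0. Of 46 listed genes, 42 were measured, 32 tested and 18 bright. The medians of the 32 were -0.03 in RCC4 and -0.06 in UMRC2, and the median of the mean over both lines was -0.043, whose sign turned under median scaling (0.019). Over the 18 bright members the medians were -0.02 and 0.00. STC2 in RCC4 and SIAH2 in UMRC2 were the only bright members past 1.5-fold, each in 1 line. Of all bright genes, 0.722% passed it in RCC4 and 1.97% in UMRC2. All 18 intervals lay within 2-fold, against 98.7% of all bright genes.

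The classical reporters of estrogen action in breast cells were mostly near the lower end of the scale. PGR, the progesterone receptor gene, read 5.53 and 4.62 in RCC4 and 4.99 and 5.55 in UMRC2, and GREB1 5.47, 6.11, 4.17 and 4.17 in the same order. EGR3 lay between 5.58 and 5.95. None of these reached the array median, and none entered the test. TFF1, trefoil factor 1, went from 7.38 to 6.06 in RCC4 and from 7.21 to 6.93 in UMRC2, on either side of the array median. Among tested genes under log2 7 in a pair, responses had a standard deviation of 0.882 in RCC4 EV and 0.937 in UMRC2 EV.

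Targets that the cells do express strongly gave tighter values. CCND1, cyclin D1, went from 9.36 to 9.17 in RCC4 and from 11.33 to 11.26 in UMRC2, and MYC from 11.73 to 11.78 and from 12.53 to 12.66. The other bright probe set of CCND1 was less steady, with -0.27 in RCC4 and 0.41 in UMRC2. In the FoxO lines CCND1 fell by 2.41 ± 0.12 (SE, 4 pairs; adjusted p = 7.87e-05) and MYC fell by 2.11 ± 0.18 (adjusted p = 0.000287). PDZK1, a scaffold protein of kidney transporters, went from 12.47 to 12.42 and from 11.09 to 11.19, and CA12, a carbonic anhydrase, from 12.36 to 12.49 and from 12.11 to 12.15. XBP1, of the unfolded protein response, gave 0.04 and -0.09, and NRIP1, a corepressor, -0.09 and -0.35. STC2, stanniocalcin 2, went from 10.90 to 10.19 in RCC4 and stayed at 10.35 in UMRC2, and its other bright probe set gave -0.17 and -0.25.

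SIAH2 and CTSD had the largest responses of equal sign among bright estrogen receptor targets. SIAH2, a ubiquitin ligase that acts in the hypoxia response, went from 10.02 to 10.41 in RCC4 and from 9.42 to 10.09 in UMRC2. Its mean was 0.53 ± 0.20 (SE, n = 2 lines; interval 0.05 to 1.0, adjusted p = 1 by limma), and in the FoxO lines it fell by 0.63 (adjusted p = 0.0156). CTSD, the lysosomal protease cathepsin D, went from 12.62 to 12.86 and from 12.69 to 13.11. Its mean was 0.33 ± 0.09 (SE, n = 2 lines; interval 0.12 to 0.53, adjusted p = 1 by limma). Each has 1 bright probe set, so neither value could be read a second time. Of 32 members tested, 3 (9.38%) had an unadjusted p under 0.05 by limma, CTSD, SIAH2 and the dim CCN5, against 2.37% of all tested genes, and 0 passed after adjustment.

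**Figure D5:**
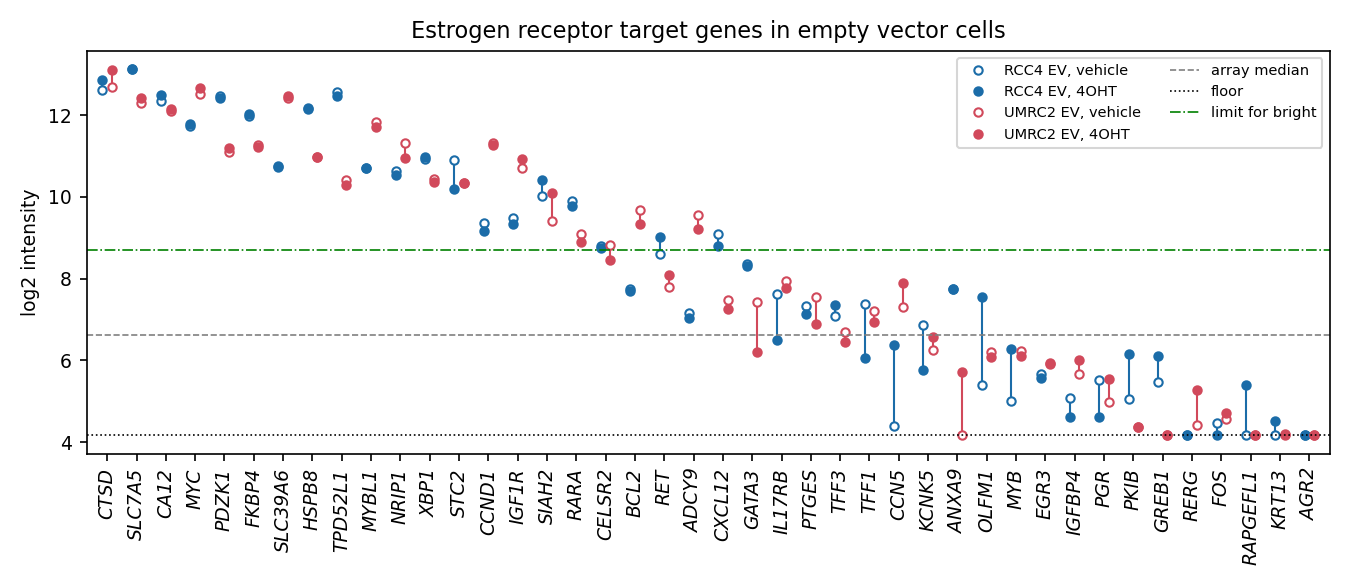
Log2 intensity (vertical axis) of 42 measured estrogen receptor target genes in the 4 empty vector arrays, ordered by mean level, with vehicle as open and 4OHT as filled circles joined by a line within each cell line; horizontal lines mark the limit for bright genes (8.69), the array median (6.62) and the floor (4.17). For the bright genes on the left, responses lie between -0.71 (STC2 in RCC4) and 0.66 (SIAH2 in UMRC2). Long joining lines of both directions appear among dim genes on the right.

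The receptors and binding proteins through which tamoxifen could act had small responses where they were bright. ESRRA, an orphan receptor related to the estrogen receptor, went from 9.73 to 9.83 in RCC4 and from 9.71 to 9.75 in UMRC2. GPER1, a membrane receptor for estrogen, read 9.65 and 9.58 in RCC4 and was dim in UMRC2, at 6.61 and 5.78. PGRMC2, a haem-binding membrane protein, gave -0.02 and -0.16. The coactivator genes NCOA1 and NCOA2 gave 0.22 and 0.11, and 0.05 and 0.09. The 8 bright members had medians of 0.07 and 0.08.

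Targets of the aryl hydrocarbon receptor had responses near 0 where bright. CYP1A1, its most inducible target, was near the floor, at 4.41 and 5.16 in RCC4 and at 4.17 in both UMRC2 arrays. CYP1B1 went from 11.06 to 11.20 in UMRC2 and from 7.15 to 7.14 in RCC4. TIPARP, which feeds back on the receptor, gave 0.05 and 0.12, and the quinone reductase NQO1 -0.02 and 0.02, with an interval from -0.20 to 0.20. Over 6 bright targets the medians were 0.02 and 0.08.

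Lysosomal genes, 26 of them bright, had medians of 0.00 and 0.06. PLA2G15, a lysosomal phospholipase, gave 0.11 and 0.67, and ATP6V0D2, a proton pump subunit, 0.12 and -0.86. They were the only bright members past 1.5-fold, both in UMRC2, where 1.97% of all bright genes passed it (RCC4, 0.722%). The p53 list, to which AEN belongs, had bright medians of 0.11 in RCC4 and -0.17 in UMRC2. CDKN1A, the cell cycle inhibitor p21, gave 0.05 and 0.27, and MDM2 -0.01 and -0.24. Of 5 bright NF-kB targets, LIF gave -0.45 and -0.35, TNFAIP3 -0.21 and -0.31 and NFKBIA -0.04 and 0.09. The stress genes DDIT4 and TRIB3 gave 0.09 and 0.34, and 0.03 and 0.13, while in the FoxO lines they fell by 1.48 (adjusted p = 0.000454) and 1.84 (adjusted p = 0.000189).

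Across the 22 lists with at least 5 bright genes, the list medians in empty vector cells ran from -0.21 (NF-kB targets) to 0.11 (p53 targets) in RCC4 and from -0.17 (p53 targets) to 0.12 (immediate early genes) in UMRC2. In the FoxO3 lines they ran from -1.31 (G1/S genes) to 1.87 (FoxO targets) in RCC4 and from -1.59 to 1.29 in UMRC2. FoxO targets, the readout of the fusions, had medians of 0.02 and -0.07 over 17 bright members in empty vector cells.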

How the data were processed

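Per the labels, total RNA was hybridised to Affymetrix U133 Plus 2.0 arrays. The authors deposited 1 linear intensity for each probe set, made with MAS5 per the submitters' processing notes, with version and scaling target not given in the sources used here. Of 54675 probe sets, 62 were controls, 41091 had 1 gene symbol, 1801 several and 11721 none; only those with 1 symbol were used, and the brightest per gene. Quantile normalisation was done on log2 values, with a floor at the 20th percentile. limma 3.58.1 in R 4.3.3 was fitted to the 6 responses with construct and cell line, a prior following the mean level (prior degrees of freedom 5.46) and 2 residual degrees of freedom, two-sided, with Benjamini-Hochberg adjustment. The fit was run on simulated data that took their spread from the empty vector pairs. Bright genes spread more widely in the fusion pairs, so that run does not show how the fit behaves on these data. Named genes are those past 1.5-fold with equal or opposite signs, the sterol, receptor and estrogen targets fixed by rule, and list members by size of response; the genes near the threshold, RNF141, SRC, NNMT, RNA45SN5 and COLGALT1, and some list members, were chosen after their values were seen. Members and lists were chosen with earlier results of these data known. The number of arrays limits the precision. Alternatives covered scaling, floor, probe set, filter, fold, prior, model terms and leaving out pairs.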

Additional observations from a re-analysis of the deposited data

Results flagged for a closer look

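Among the named genes, 6 had responses past 1.5-fold of opposite sign in RCC4 and UMRC2 empty vector cells. BANP and DNAJC5 were named for this pattern, and the count does not cover every gene of the lists. Over all 14280 tested genes the pattern held for 269 (1.88%). With 1 array per group the difference between the lines was not tested. BANP gave -1.31 in RCC4 and 0.71 in UMRC2, and its second bright probe set had both signs turned. DNAJC5 gave -0.61 and 1.10, with its other bright probe sets within 0.14 of 0. The other four genes were dim. ABCG1, a sterol exporter, gave -0.59 and 0.79. MAOB, a monoamine oxidase, gave -2.18 and 0.73, with a vehicle level at the floor in UMRC2. NR4A1, an immediate early receptor gene, gave 0.67 and -1.90. CSF1R, a macrophage receptor, gave -0.79 and 1.29.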

How the results depend on the processing

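The count of bright genes past 1.5-fold with equal sign, 0, became 1 under median scaling (TMX4), 2 with values as deposited (AEN and PAQR4) and 3 when all probe sets of a gene were averaged (CAPZA1, MT1G and TNIP1). It became 81 when bright meant the array median, with 81 of opposite sign, and 128 at 1.2-fold. The empty vector test called 0 genes under all alternatives that kept both empty vector pairs. Without the RCC4 EV pair the fit rests on the single UMRC2 pair. There SRC, not bright in UMRC2 alone, gave -2.29, and the dim ANXA2P3 and FGFR3 gave -4.01 and -3.00. Calls in the FoxO lines numbered 1839 with values as deposited (319 higher, 1520 lower, against 1579 and 2201), 1404 without a filter and 1919 with a constant prior. Leaving out pairs gave 1913 (without UMRC2 FoxO1) to 3926, with 2421 without RCC4 FoxO1. The sterol median, 0.036, was 0.133 under median scaling, which shifted all tested genes of UMRC2 EV by 0.156, and 0.062 as deposited, 0.060 with trimmed mean scaling, 0.022 with the mean of probe sets and 0.038 to 0.055 in single lines. The estrogen target median, -0.043, was 0.019 under median scaling, -0.020 with a pseudocount of 16, 0.007 with the mean of probe sets and -0.006 over all members measured. The cause of these shifts was not tested. Across 834 values of named genes in empty vector cells, 756 were the same and 78 moved by more than their spread. Every response is paired within a line by treatment, and there is no further replicate number to pair by. Dim probe sets limit what can be read of PGR, GREB1 and CYP1A1.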
